A study of Mus musculus with 10 samples.

Results

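The developing mouse lower incisor was described here through 10 genes of bone morphogenetic protein (BMP) signalling: the ligand genes *Bmp2*, *Bmp3*, *Bmp4*, *Bmp5* and *Bmp7*, the antagonist genes *Nog* and *Fst*, and the target genes *Id1*, *Id2* and *Id3*. They were chosen by name, and each matched 1 of the 32285 genes counted. The data are single-cell RNA counts from wild type NMRI embryos without any treatment, taken as whole mandibles on embryonic day E11.5 and as lower incisor buds dissected on days E14.5 and E16.5. Each stage was deposited as 1 matrix in which the labelled samples (4, 4 and 2) cannot be told apart, so each stage is 1 sample without replicates and no test was possible. Stage and dissected tissue cannot be told apart between E11.5 and the later stages.

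BMPs are secreted ligands of the TGF-beta family that bring together type I and type II serine/threonine kinase receptors, which phosphorylate Smad1, Smad5 and Smad9. These enter the nucleus with Smad4 and switch on target genes, among them the Id genes. In tooth development BMPs pass signals back and forth between the dental epithelium and the neural crest derived mesenchyme, and *Bmp4* is known as an early mesenchymal signal of the tooth bud. The enamel knot, a signalling centre of the epithelium marked by *Shh*, is a known source of several BMPs. Secreted antagonists such as noggin (*Nog*) and follistatin (*Fst*) bind ligands outside the cell, and follistatin, which binds activin most tightly, is known to limit enamel formation in the incisor epithelium.

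The genes lie on 8 chromosomes of the mouse genome (GRCm38, GENCODE gene bounds). *Bmp2* spans chromosome 2 from 133552159 to 133562885, *Bmp7* chromosome 2 from 172868012 to 172940321 and *Id1* chromosome 2 from 152736251 to 152737410. *Bmp3* lies on chromosome 5 from 98854415 to 98884396, *Bmp4* on chromosome 14 from 46383520 to 46390669 and *Bmp5* on chromosome 9 from 75775364 to 75900310. *Nog* lies on chromosome 11 from 89300638 to 89302332 and *Fst* on chromosome 13 from 114452290 to 114458951. *Id2* lies on chromosome 12 from 25093799 to 25097140 and *Id3* on chromosome 4 from 136143497 to 136145755.

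The promoters of *Id2* and *Id3* are shown because the Id genes are the transcriptional targets whose levels are followed below. Each is the RefSeq sequence (GRCm38.p6) from 250 bases before to 50 bases after the gene's RefSeq start, and 4 of the 10 genes had an entry. *Id2* is given from chr12:25096043-25096342 on the minus strand and *Id3* from chr4:136143572-136143871 on the plus strand. Both windows lie inside the GENCODE bounds given above, whose outer start is further upstream than the RefSeq start. Capitals mark matches, on either strand, to GGCGCC and CAGAC, both known from Smad binding sites, and to CCAAT, a common promoter box.
*Id2*: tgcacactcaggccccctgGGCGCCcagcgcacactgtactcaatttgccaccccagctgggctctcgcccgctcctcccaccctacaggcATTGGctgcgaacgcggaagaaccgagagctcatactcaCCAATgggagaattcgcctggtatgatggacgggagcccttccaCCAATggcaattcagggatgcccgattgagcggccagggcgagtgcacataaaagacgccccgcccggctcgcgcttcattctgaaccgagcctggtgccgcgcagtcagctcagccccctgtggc
*Id3*: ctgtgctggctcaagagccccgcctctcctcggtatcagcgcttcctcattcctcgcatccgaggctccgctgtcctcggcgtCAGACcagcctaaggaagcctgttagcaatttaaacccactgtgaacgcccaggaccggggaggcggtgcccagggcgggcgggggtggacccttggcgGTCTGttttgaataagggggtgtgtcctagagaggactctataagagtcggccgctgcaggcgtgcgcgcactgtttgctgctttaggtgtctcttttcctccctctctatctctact
In the *Id2* window GGCGCC began 231 bases before the start, and CCAAT or its reverse complement ATTGG began 159, 120 and 76 bases before it. In the *Id3* window CAGAC or its reverse complement GTCTG began 167 and 68 bases before the start. Of all 32851 promoters of this length, 11.9% held GGCGCC, 49.6% held CAGAC or GTCTG and 37.4% held CCAAT or ATTGG, so these matches are common and are given as a description only.

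Barcodes with 700 genes or more and no more than 20% of UMIs from mitochondrial genes were retained, 6573 of 8708, 6091 of 8192 and 4511 of 5719 in order of stage. The retained cells had median depths of 5664, 3471 and 6260 UMIs, the unique molecular identifiers that count captured RNA molecules. A cell was assigned to a lineage when it held UMIs of at least 3 markers of that lineage's list and of fewer than 3 of every other list. The erythroid list was not scored this way, and a cell met the erythroid rule when globin genes made up over 5% of its UMIs. Mesenchyme held 5091, 3835 and 2281 cells in order of stage, and epithelium held 610 cells at E14.5 plus 1456 at E16.5. At E11.5, where the tissue was the whole mandible, 8 cells were assigned to epithelium, so no epithelial level is given for that stage. Between stages, 46 barcodes were shared, and cells with markers of more than 1 lineage (83, 221 and 253 cells) were left out as mixed. Summed epithelial markers in cells assigned to mesenchyme were 3.98, 43.5 and 65.3 CPM at the 3 stages, and summed mesenchymal markers in cells assigned to epithelium were 115 CPM at E14.5 and 92.0 CPM at E16.5. In erythroid cells summed mesenchymal markers were 86.3 CPM at E11.5 and 497 at E14.5. At E14.5 they were 78.8 CPM in endothelial and 52.5 in immune cells. The part of mesenchymal RNA in the erythroid levels given below was not tested.

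The level of a gene in a group of cells is its CPM, that is its UMIs per 1000000 UMIs of the group, with an exact Poisson interval at the 95% level in parentheses, and ratios as the quotient of these CPM with an exact conditional interval. A gene was counted as higher or lower in a comparison when its ratio was at least 2 fold and the interval excluded 1, among genes with at least 50 counts over both groups. All intervals cover counting error only and not the spread between embryos.

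*Bmp4*, the best known mesenchymal BMP of the tooth, was higher in the mesenchyme of the incisor buds than in that of the mandible. Its level was 13.0 CPM (11.9 to 14.2) at E11.5, 59.1 (55.3 to 63.0) at E14.5, followed by 99.1 (94.3 to 104) at E16.5. The step from E11.5 to E14.5 was 4.54 fold (4.08 to 5.06), and that from E14.5 to E16.5 was 1.68 fold (1.55 to 1.82), below 2 fold. UMIs of *Bmp4* were found in 8.41% (7.66 to 9.20), 18.8% (17.6 to 20.1) and 41.1% (39.1 to 43.1) of mesenchymal cells. With each cell thinned to 2000 UMIs these shares were 2.15% (1.76 to 2.60), 9.62% (8.66 to 10.7) and 17.2% (15.7 to 18.8), so the order of the stages was the same at equal depth and the intervals did not overlap. In immune cells, which served as a class without a known *Bmp4* source, no *Bmp4* UMI was found in 49, 116 and 24 cells, where 3 counts would correspond to 7.56, 3.66 and 11.8 CPM. Their median depth was 7540, 6534.5 and 8909.5 UMIs, above that of the mesenchyme. Erythroid cells, the red cell lineage, held 0, 3 and 5 counts in 107, 38 and 9 cells, or 0.00 (0.00 to 5.79), 14.9 (3.08 to 43.6) and 65.4 (21.2 to 153) CPM. Their interval lay below the mesenchymal one at E11.5 and E14.5 and spanned it at E16.5.

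In the epithelium *Bmp4* was low and lower at the later stage. It was 13.2 CPM (10.3 to 16.7) at E14.5 versus 4.87 (3.86 to 6.06) at E16.5, which was 2.72 fold (1.94 to 3.79) lower. Against the mesenchyme of the same stage, epithelial *Bmp4* was 4.47 fold (3.502 to 5.78) lower at E14.5 and 20.4 fold (16.3 to 25.8) lower at E16.5. The E16.5 epithelial level overlapped that of endothelial cells, 2.19 (0.265 to 7.89), used here as a further background class, and was not distinguishable from background at this depth. The E14.5 epithelial interval also met that of endothelial cells, 2.97 (0.360 to 10.7), and lay within that of erythroid cells. In cells assigned to epithelium all 7 mesenchymal markers were detected, at a summed 115 and 92.0 CPM against 3056 and 3113 CPM in mesenchyme of E14.5 and E16.5, and their part in the epithelial level of *Bmp4* was not tested.

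*Bmp2*, a close relative of *Bmp4* in sequence and receptors, was low in mesenchyme until E14.5 and high at E16.5. Its mesenchymal level was 4.34 CPM (3.73 to 5.03) at E11.5, 7.89 (6.56 to 9.40) at E14.5, followed by 79.5 (75.3 to 83.9) at E16.5, a step of 10.1 fold (8.38 to 12.2) between the last 2 stages. The share of mesenchymal cells with a *Bmp2* UMI was 1.63% (1.24 to 2.12) at E14.5 versus 12.9% (11.6 to 14.4) at E16.5 when cells were thinned to 2000 UMIs, against 3.60% (0.990 to 8.97) of 111 immune cells at E14.5. In the epithelium *Bmp2* was 12.5 CPM (9.64 to 15.9) at E14.5 versus 8.70 (7.33 to 10.2) at E16.5. Epithelium and mesenchyme thus differed by 1.58 fold (1.15 to 2.15) at E14.5, below the 2-fold mark, and at E16.5 the epithelium was 9.14 fold (7.69 to 10.9) lower. At E14.5 immune cells held 18.3 CPM (10.3 to 30.2) of *Bmp2*, from 15 counts in 9 of 116 cells. This level overlapped the epithelial one and lay above the mesenchymal one, so the E14.5 levels of either whole lineage were not above this class. Whether these counts were the immune cells' own expression was not tested. Erythroid cells held 3.14 (0.380 to 11.3), 4.97 (0.126 to 27.7) and 26.2 (3.17 to 94.5) CPM from 2, 1 and 2 counts. At E11.5 the mesenchymal levels of *Bmp2*, *Bmp3*, *Bmp5*, *Bmp7* and *Nog* lay below the 7.56 CPM that 3 counts in immune cells would give. They could not be set apart from that class at its depth. For *Bmp7* the endothelial and erythroid cells of E11.5 also held 0 counts, and the classes were not pooled.

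*Bmp7*, a ligand of the group that includes *Bmp5* and *Bmp6*, did not pass 2 fold between mesenchyme and epithelium at either stage. In mesenchyme it was 5.62 CPM (4.92 to 6.40), 20.9 (18.7 to 23.2) and 28.6 (26.1 to 31.3) at the 3 stages, and in epithelium 32.5 (27.8 to 37.7) at E14.5 versus 29.6 (27.1 to 32.4) at E16.5. The first mesenchymal step was 3.71 fold (3.13 to 4.41), while epithelium over mesenchyme was 1.56 fold (1.29 to 1.88) at E14.5 but 1.04 fold (0.911 to 1.18) at E16.5. Endothelial and immune cells together held 1 *Bmp7* UMI over the 3 stages, so the levels in both dental lineages at E14.5 and E16.5 lay above these 2 classes. Erythroid cells held 4.97 (0.126 to 27.7) CPM at E14.5 from 1 count and 26.2 (3.17 to 94.5) at E16.5 from 2 counts. Their interval included the mesenchymal level at both stages and the epithelial level at E16.5.

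*Bmp3*, whose product binds activin type II receptors and dampens signalling by other BMPs, was low in the mandible and the epithelium and higher in the mesenchyme of the incisor buds. It was 0.270 CPM (0.135 to 0.483) at E11.5 from 11 counts, 21.8 (19.6 to 24.3) at E14.5, followed by 37.2 (34.4 to 40.3) at E16.5, and the first step was 80.8 fold (44.6 to 163). In the epithelium it was 1.51 (0.652 to 2.98) at E14.5 from 8 counts and 0.304 (0.0988 to 0.710) at E16.5 from 5 counts. The 38 erythroid cells of E14.5 held 6 *Bmp3* counts, 29.8 CPM (10.9 to 64.9), an interval that included the mesenchymal level. These erythroid cells also held 497 CPM of summed mesenchymal markers, whose bearing on their *Bmp3* level was not tested. Endothelial cells held 1 count and immune cells 0 at that stage. At E16.5 all 3 classes held 0 counts, but the erythroid interval, 0.00 to 48.2 CPM in 9 cells, again included the mesenchymal level. *Bmp5*, a ligand known for skeletal patterning, was 1.40 CPM (1.06 to 1.81), 7.70 (6.39 to 9.20) and 5.88 (4.77 to 7.16) in mesenchyme. Its epithelial level was 0.378 (0.0458 to 1.36) at E14.5 from 2 counts and 4.08 (3.16 to 5.18) at E16.5 from 67 counts, a ratio of 10.8 fold (2.87 to 90.9) that rests on few counts and was 1.33 on the log2 scale when cells were thinned to 2000 UMIs. Endothelial cells held 2.97 CPM (0.360 to 10.7) of *Bmp5* at E14.5 from 2 counts, which overlapped the mesenchymal level. At E16.5 they held 0 counts, with an interval of 0.00 to 4.03 that met the epithelial one. Immune cells held 0 counts at both stages.

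**Figure D1:**
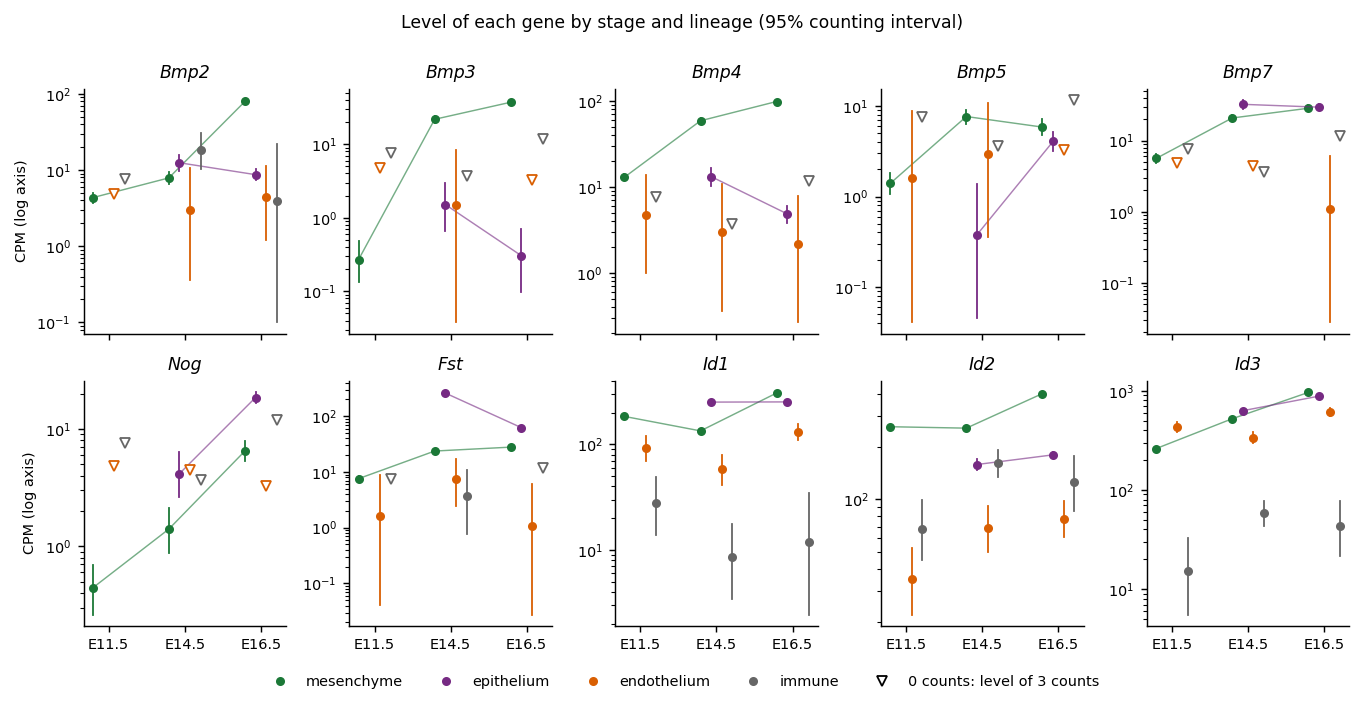
Level of each gene in CPM (log axis) at the 3 stages in mesenchyme, epithelium, endothelium and immune cells; points are pooled levels, bars are counting intervals, and open triangles stand at the level of 3 counts where a class held 0. *Bmp4* and *Bmp3* run apart between mesenchyme and epithelium, and *Bmp7* and *Id3* run together. *Fst* stands higher in epithelium than in mesenchyme at both stages and *Nog* at E16.5. At E14.5 *Nog* had 22 counts in each of the 2 lineages, too few for the rule.

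*Fst* was an epithelial transcript above all at E14.5, and its level there was lower at the later stage. In the epithelium it was 260.3 CPM (247 to 274) at E14.5 versus 62.3 (58.6 to 66.2) at E16.5, which was 4.18 fold (3.85 to 4.53) lower. In mesenchyme it was 7.58 CPM (6.76 to 8.48), 23.7 (21.4 to 26.3) and 27.9 (25.4 to 30.5) at the 3 stages. The epithelium was 10.97 fold (9.78 to 12.3) higher at E14.5 and 2.23 fold (2.001 to 2.50) higher at E16.5. At equal depth the share of epithelial cells with a *Fst* UMI was 31.5% (27.7 to 35.4) at E14.5 versus 9.06% (7.61 to 10.7) at E16.5, against 0.901% (0.0228 to 4.92) of immune cells at E14.5 and 0 of 22 at E16.5. The E11.5 mesenchymal level overlapped those of endothelial cells, 1.59 CPM (0.0403 to 8.87), and immune cells, 0.00 (0.00 to 9.29). Erythroid cells held 0.00 (0.00 to 5.79), 14.9 (3.08 to 43.6) and 0.00 (0.00 to 48.2) CPM in order of stage. Their interval lay below the mesenchymal level at E11.5 and included it at E14.5 and E16.5. It lay below the epithelial level at both later stages.

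*Nog*, which encodes noggin and blocks the receptor contacts of BMPs, was rare in mesenchyme at E11.5 and in mesenchyme and epithelium at E14.5. In the epithelium it was 4.16 CPM (2.60 to 6.29) at E14.5 versus 18.5 (16.48 to 20.7) at E16.5, a ratio of 4.45 fold (2.89 to 7.21). In mesenchyme it was 0.442 CPM (0.262 to 0.698), 1.40 (0.877 to 2.12) and 6.48 (5.31 to 7.82), and the last step was 4.63 fold (2.91 to 7.69). The E16.5 epithelium was 2.86 fold (2.29 to 3.59) above the mesenchyme of that stage. At E14.5 endothelial, immune and erythroid cells each held 0 *Nog* counts, with intervals of 0.00 to 5.49, 0.00 to 4.50 and 0.00 to 18.3 CPM. Each of these overlapped the intervals of both lineages. The ratios of E16.5 over E14.5 thus rest on E14.5 levels that could not be set apart from any of these classes taken alone. The classes were not pooled. At E16.5 the endothelial interval, 0.00 to 4.03 CPM, lay below both lineages, and the erythroid one, 0.00 to 48.2, included both. In the E16.5 epithelium 216 of 1456 cells held a *Nog* UMI, 14.8% (13.0 to 16.8), against 0 of 109 endothelial cells and 0 of 24 immune cells. At equal depth the epithelial share was 3.81% (2.87 to 4.96). It was 0 of 103 endothelial cells (0.00 to 3.52) and 0 of 22 immune cells (0.00 to 15.4), and both intervals overlapped the epithelial one.

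The Id genes encode helix-loop-helix proteins without a DNA-binding region that hold back basic helix-loop-helix factors, and they were detected in all 4 lineages named here. *Id3* was 261 CPM (256 to 266) in the mesenchyme at E11.5, 522 (510.4 to 533) at E14.5, followed by 961 (946 to 976) at E16.5. The steps were 1.999 fold (1.94 to 2.06) and 1.84 fold (1.79 to 1.89), so the first lay just under the 2-fold mark and *Id3* was not counted as higher. In the epithelium *Id3* was 629 (608 to 651) at E14.5 versus 881 (867 to 896) at E16.5, and epithelium over mesenchyme was 1.21 fold (1.16 to 1.26) and 0.918 fold (0.897 to 0.939). Endothelial cells held 433 (383 to 488), 338 (295 to 384) and 612 (562 to 665) CPM of *Id3*, and immune cells held less, 15.1 (5.55 to 32.9), 58.6 (43.2 to 77.7) and 43.3 (21.6 to 77.5).

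*Id1* had its lowest mesenchymal level at E14.5. It was 185 CPM (180.5 to 189) at E11.5, 135 (129 to 140.4) at E14.5, followed by 308 (299 to 316) at E16.5, a ratio of 2.29 fold (2.17 to 2.41) for the last step. In the epithelium *Id1* was 252 (239 to 266) at E14.5 versus 253 (246 to 261) at E16.5, a ratio of 1.004 fold (0.944 to 1.07). *Id2* was 261 CPM (256 to 266), 256 (248 to 264) and 403 (394 to 413) in mesenchyme, and the log2 ratio of its first step was -0.03, or 0.06 with a scale that left out mitochondrial, ribosomal protein and globin genes. Epithelial *Id2* was 158 (148 to 169.6) at E14.5 versus 180.0 (174 to 187) at E16.5, which was 1.61 fold (1.498 to 1.74) and 2.24 fold (2.15 to 2.34) below the mesenchyme. In immune cells *Id2* was 161 (135 to 191) CPM at E14.5, within the interval of the epithelium, while *Id1* was 8.55 (3.44 to 17.6).

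A list of 10 genes known to respond to cell dissociation (among them *Fos*, *Jun*, *Egr1* and *Atf3*) also moved with stage. Its summed level in mesenchyme was 208 (204 to 213), 1022 (1006 to 1038) and 1886 (1865 to 1907) CPM in order of stage, and in epithelium 2244 (2204 to 2285) at E14.5 versus 1288 (1270.3 to 1305) at E16.5. Its part in the levels of the Id genes was not tested.

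From E11.5 to E14.5, 5 of the 9 genes with enough counts were at least 2 fold higher in mesenchyme (*Bmp3*, *Bmp4*, *Bmp5*, *Bmp7* and *Fst*) and 0 were lower, while 10.3% and 11% (21.3% in either direction) of all 12623 genes met the same rules. *Nog* fell short of 50 counts, and *Bmp3* reached them only through the E14.5 cells, where it was higher. From E14.5 to E16.5, 3 of 10 were higher in mesenchyme (*Bmp2*, *Nog* and *Id1*) and 0 were lower, against 7.29% and 2.21% (9.5% in either direction) of all genes. *Nog* reached 50 counts only through the E16.5 cells. In the epithelium over the same interval 2 of 9 were higher (*Bmp5* and *Nog*) and 2 were lower (*Bmp4* and *Fst*), against 6.95% and 2.34% (9.29% in either direction) of all genes. *Bmp3* had too few counts for this comparison, and *Bmp5* reached them only through the E16.5 cells. The median log2 ratio of the tested members was 1.65, 0.76 and 0.01 in these comparisons, beside -0.20, 0.15 and 0.15 over all genes tested.

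Between lineages at E14.5, 1 of 9 genes was higher in epithelium (*Fst*) and 3 were lower (*Bmp3*, *Bmp4* and *Bmp5*), beside 9.46% and 11.2% (20.6% in either direction) of all genes. At E16.5, 2 of 10 were higher in epithelium (*Nog* and *Fst*) and 4 were lower (*Bmp2*, *Bmp3*, *Bmp4* and *Id2*), beside 10.2% and 12.1% (22.3% in either direction). *Bmp3* at both stages and *Bmp5* at E14.5 reached the minimum of counts only through the mesenchyme. Thus *Bmp3*, *Bmp4* and *Fst* passed 2 fold on the same side at both stages. *Bmp5* passed it at E14.5 only and *Id2* at E16.5 only, and both were lower in epithelium at both stages. For *Bmp5* the ratio of epithelium over mesenchyme at E16.5 was 0.694 fold (0.501 to 0.956). *Bmp2* passed 2 fold at E16.5 only, where epithelium was lower, and at E14.5 epithelium was 1.58 fold (1.15 to 2.15) higher. The difference between the stages was not tested.

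**Figure D2:**
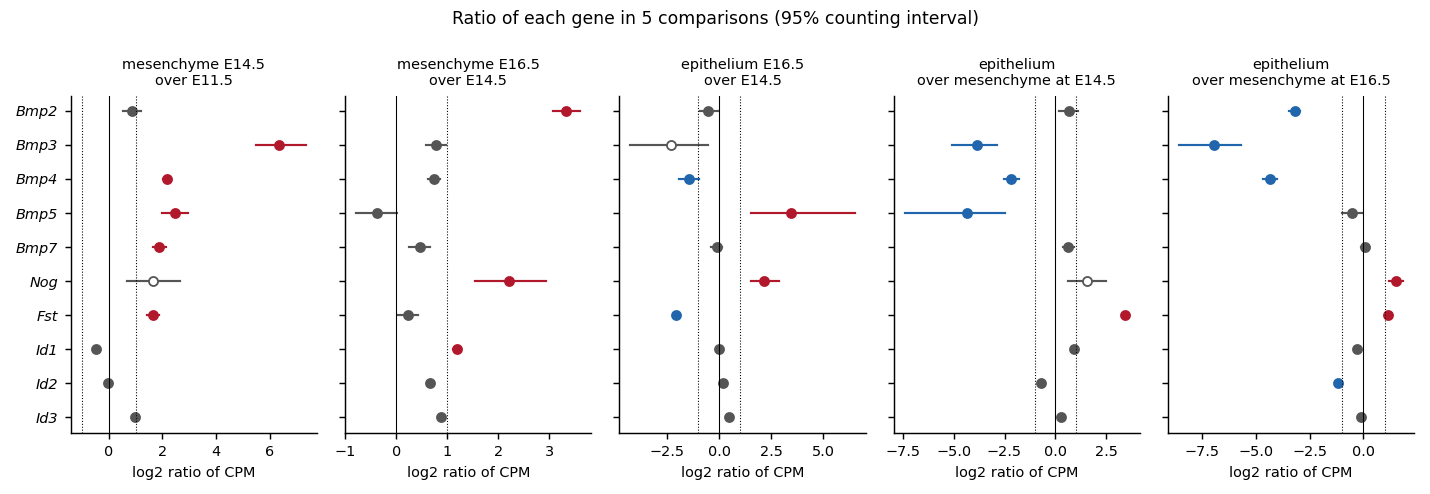
Log2 ratio of CPM for each gene in 5 comparisons, with counting intervals; red marks at least 2 fold higher, blue at least 2 fold lower, grey neither, and open points too few counts (dotted lines at 2 fold). The point farthest to the right is *Bmp3* in mesenchyme from E11.5 to E14.5, with a wide interval, and *Bmp4* lies to the left in both comparisons of epithelium with mesenchyme.

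At E11.5 the mesenchyme was divided by *Hand2*, which marks the distal mandible where incisors form, and *Barx1*, which marks the proximal part where molars form. Of the mesenchymal cells, 1231 held *Hand2* UMIs without *Barx1*, 1698 held *Barx1* without *Hand2* and 1241 held both. *Bmp4* was 27.0 CPM (23.9 to 30.5) in the *Hand2* cells and 7.27 (5.87 to 8.90) in the *Barx1* cells, 3.72 fold (2.93 to 4.75) higher, and cells with both markers had 8.45 (6.96 to 10.2). *Fst* was 11.8 (9.79 to 14.2) against 4.56 (3.47 to 5.89), a ratio of 2.60 fold (1.88 to 3.61). *Id2* was 376 (364 to 389) against 181 (173 to 188), a ratio of 2.09 fold (1.98 to 2.20), while *Id1* and *Id3* differed by 1.69 and 1.35 fold. The intervals of *Bmp7* and *Bmp2* included 1, at ratios of 0.889 fold (0.615 to 1.28) and 0.914 fold (0.627 to 1.33).

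In this comparison 3 of 7 genes were higher in the *Hand2* cells (*Bmp4*, *Fst* and *Id2*) and 0 were lower, beside 2.38% and 1.84% (4.22% in either direction) of all genes. *Bmp3*, *Bmp5* and *Nog* had too few counts. *Nog* had 12 UMIs in the *Hand2* cells, 1.21 CPM (0.628 to 2.12), and 0 in the *Barx1* cells, where 3 counts would be 0.232 CPM. Of a list of 46 other BMP pathway genes, 30 had enough counts. Those that had them only through the cells with the higher level were not counted separately. In the *Hand2* cells 7 of them were higher and 2 lower, beside 2.38% and 1.84% of all genes. Of the higher ones, the homeobox target genes *Msx1* and *Msx2* had ratios of 3.501 fold (3.30 to 3.71) and 7.85 fold (6.40 to 9.71). *Bambi*, a decoy receptor induced by BMPs, was 3.97 fold (3.41 to 4.63) higher and the inhibitory Smad gene *Smad7* 2.22 fold (1.99 to 2.47). The type I receptor gene *Bmpr1b* was 4.60 fold (3.64 to 5.89) lower. Summed dissociation response genes were 188 (179.8 to 197) CPM in the *Hand2* cells and 245 (237 to 254) in the *Barx1* cells, the opposite order.

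At E14.5 and E16.5 the mesenchyme was divided by 6 markers of the dental papilla, the mesenchyme enclosed by the tooth germ (among them *Fgf3*, *Fgf10* and *Crym*), and 6 osteogenic markers (among them *Runx2*, *Sp7* and *Ibsp*). Cells with at least 2 markers of the papilla list and fewer than 2 of the other numbered 346 and 236 at the 2 stages, and osteogenic cells by the same rule 677 and 635. At E14.5 the papilla cells were deeper, with a median of 5933 UMIs against 3663. *Bmp4* was higher in papilla cells, 91.5 CPM (79.3 to 105) against 43.7 (36.4 to 52.1) at E14.5 and 128 (113 to 144) against 69.1 (62.0 to 76.9) at E16.5, ratios of 2.09 fold (1.66 to 2.64) and 1.85 fold (1.57 to 2.18). *Bmp3* was on the osteogenic side, 34.6 (28.1 to 42.1) against 7.32 (4.18 to 11.9) at E14.5 and 66.3 (59.3 to 73.9) against 5.83 (3.01 to 10.2) at E16.5, so the papilla cells were 4.72 fold (2.77 to 8.58) and 11.4 fold (6.42 to 22.2) lower.

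*Bmp2* was high in both subsets at E16.5 and more so in papilla cells, 124 CPM (109 to 140.0) against 47.6 (41.7 to 54.1), a ratio of 2.60 fold (2.17 to 3.12). At E14.5 the *Bmp2* levels were 3.66 (1.58 to 7.21) and 10.2 (6.85 to 14.7), with 8 and 29 counts, too few for the rule. *Bmp5* at E16.5 was 2.43 (0.789 to 5.67) in papilla cells and 10.8 (8.07 to 14.1) in osteogenic cells, 4.44 fold (1.79 to 14.2) lower in the former. The intervals of *Bmp7* included 1, with ratios of 1.23 fold (0.839 to 1.81) at E14.5 and 0.963 fold (0.689 to 1.33) at E16.5.

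*Fst* was 2.69 fold (1.89 to 3.84) higher in papilla cells at E16.5. The Id genes differed between the subsets at E14.5, where *Id1* was 216 CPM (197 to 236) in papilla and 74.0 (64.4 to 84.8) in osteogenic cells and *Id3* was 758 (722 to 796) and 356 (335 to 379), ratios of 2.92 fold (2.47 to 3.45) and 2.13 fold (1.97 to 2.30). At E16.5 the ratios were 1.60 fold (1.46 to 1.76) for *Id1* and 1.12 fold (1.06 to 1.18) for *Id3*. Over all, 3 of 7 genes were higher in papilla cells at E14.5 (*Bmp4*, *Id1* and *Id3*) and 1 was lower (*Bmp3*), beside 2.14% and 7.04% (9.18% in either direction) of all genes. At E16.5 2 of 10 were higher (*Bmp2* and *Fst*) and 2 were lower (*Bmp3* and *Bmp5*), beside 1.4% and 3.29% (4.69% in either direction). *Bmp3* at both stages and *Bmp5* at E16.5 reached 50 counts only through the osteogenic cells. Summed dissociation response genes were lower in papilla cells, 729 (694 to 766) against 1224 (1183 to 1265) CPM at E14.5 and 1478 (1425 to 1531) against 2177 (2136 to 2218) at E16.5.

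**Figure D3:**
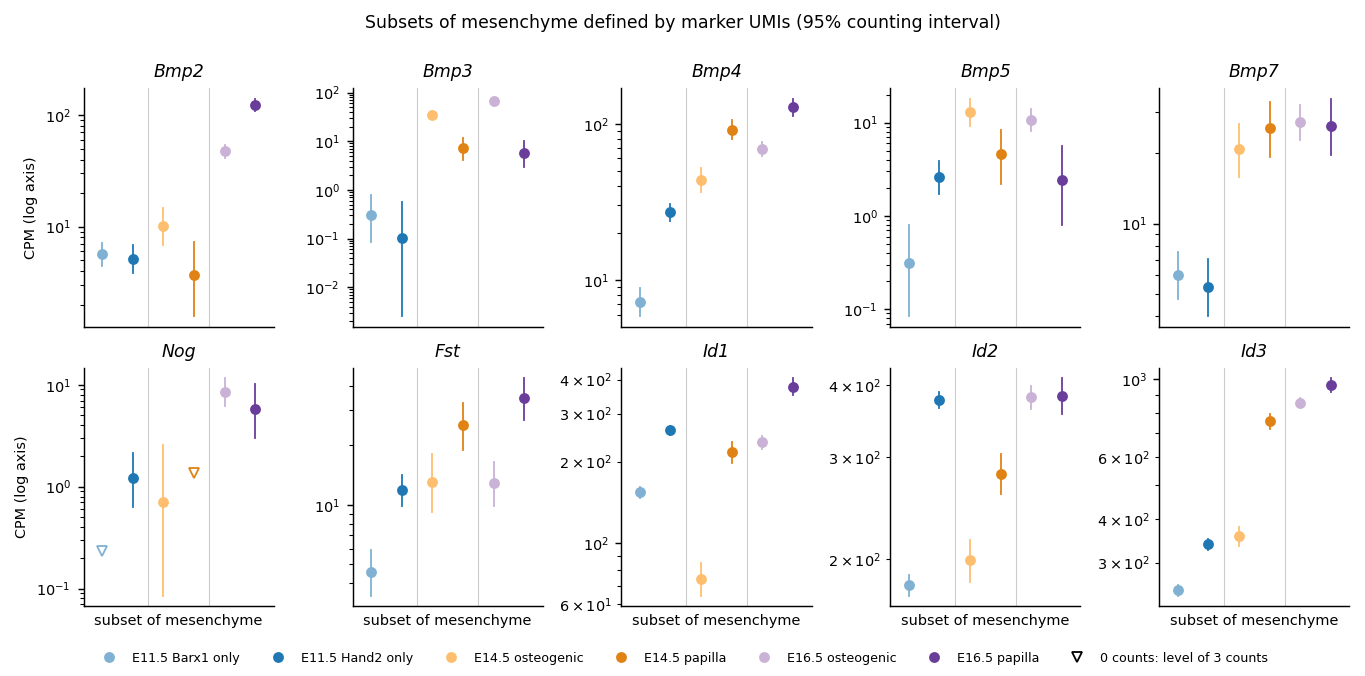
Level of each gene in CPM (log axis) in pairs of mesenchymal subsets defined by marker UMIs, *Barx1* against *Hand2* cells at E11.5 and osteogenic against papilla cells at E14.5 and E16.5; bars are counting intervals and open triangles stand at the level of 3 counts. *Bmp4* is higher in the right-hand group of every pair, *Bmp3* is lower in papilla than in osteogenic cells at both stages, and *Bmp2* is higher in the E16.5 subsets than in the earlier ones.

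In thinned mesenchymal cells, those with a *Bmp4* UMI at E11.5 (103 cells) held 369 (291 to 462) CPM of *Msx1*, against 195 (186 to 204) in the 4688 cells without, and 72.8 (40.8 to 120.1) of *Msx2* against 28.5 (25.2 to 32.1). *Msx1* was also apart at E14.5, 394 (348 to 445) against 315 (301 to 329). At E16.5 it was 421 (377 to 469) against 354 (335 to 373). *Msx2* intervals overlapped at E14.5 but not at E16.5, 109 (86.6 to 134) against 74.3 (65.8 to 83.6). The share of all genes whose intervals did not overlap was not computed for divisions by a ligand UMI. The intervals of *Id3* overlapped at E11.5, 243 (180.2 to 320.0) and 264 (254 to 275), but not at E14.5, where it was 536 (482 to 595) in the 330 cells with a *Bmp4* UMI and 460.3 (444 to 478) in those without. At E16.5 cells with a *Bmp4* UMI held 18.1 (9.89 to 30.3) CPM of *Bmp3* against 48.3 (41.5 to 55.9), and 375 (333 to 420.4) of *Id1* against 307 (289 to 325). The *Id1* intervals overlapped at E11.5 and E14.5, and those of *Id3* overlapped at E16.5, 1036 (966 to 1110) and 996 (964 to 1029). For *Id2* they overlapped at E11.5 and E16.5 but not at E14.5, 292 (253 to 337) and 233 (221 to 245). The 291 cells with a *Bmp2* UMI at E16.5 held 70.4 (50.6 to 95.6) CPM of *Fst* against 27.3 (22.4 to 33.0), and 6.87 (1.87 to 17.6) of *Bmp3* against 48.5 (41.8 to 55.9). At E16.5 *Bmp3* was thus lower in cells with a *Bmp2* UMI than in those without. At E14.5 its intervals overlapped, 17.9 (2.16 to 64.5) in 56 cells with a *Bmp2* UMI and 24.6 (21.0 to 28.6) in those without.

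The epithelium was divided by *Shh* UMIs. *Shh* marks the enamel knot of the cap stage and, later in the incisor, the transit-amplifying progenitors of the ameloblast lineage, so cells with a *Shh* UMI need not be the same population at the 2 stages. At E14.5, 91 of 610 epithelial cells held such a UMI, with a median of 6299 UMIs against 5485 in the other 519. *Bmp2* was 51.7 CPM (39.0 to 67.1) in cells with a *Shh* UMI and 2.38 (1.14 to 4.37) in those without, 21.7 fold (10.99 to 47.8) higher, and 56 of its 66 epithelial UMIs lay in the former. *Bmp4* was 48.0 (35.8 to 62.9) against 4.28 (2.53 to 6.76), a ratio of 11.2 fold (6.46 to 20.4). With cells thinned to 2000 UMIs, 10.2% (4.78 to 18.5) and 0.811% (0.221 to 2.06) of the cells had a *Bmp2* UMI and 11.4% (5.59 to 19.9) and 1.22% (0.448 to 2.63) a *Bmp4* UMI. The *Bmp2* level of *Shh* cells was above that of immune cells at this stage.

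*Bmp7* was 56.3 CPM (43.0 to 72.3) against 26.4 (21.7 to 31.8) in these cells, and *Fst* was 583 (538 to 630.3) against 177 (165 to 190.4), ratios of 2.13 fold (1.54 to 2.94) and 3.29 fold (2.95 to 3.66). *Id1* was 453 (414 to 495) against 201 (187 to 215), a ratio of 2.26 fold (2.02 to 2.53), and *Id2* and *Id3* were 1.53 and 1.48 fold higher. *Nog* went the other way in its counts, 1 UMI in the *Shh* cells and 21 in the others, too few for the rule. Of 7 genes with enough counts, 5 were at least 2 fold higher in *Shh* cells (*Bmp2*, *Bmp4*, *Bmp7*, *Fst* and *Id1*) and 0 were lower, beside 3.49% and 3.98% (7.47% in either direction) of all genes. *Bmp2* and *Bmp4* reached 50 counts only through the *Shh* cells.

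*Bmp2*, *Bmp4* and *Fst* were highest in the cells with the most *Shh* UMIs. In the 28 cells with 5 or more, *Bmp2* was 90.6 CPM (65.0 to 123), *Bmp4* 86.2 (61.3 to 118), *Fst* 838 (756 to 927) and *Id1* 610.2 (540.3 to 687). The 32 cells with 1 *Shh* UMI held 16.1 (5.21 to 37.5) CPM of *Bmp2*, 19.3 (7.07 to 41.9) of *Bmp4* and 379 (314 to 454) of *Fst*. Cells with 5 or more were deeper, with a median of 10135.5 UMIs, and *Id1* was not ordered, since the 31 cells with 2 to 4 held 265 (212 to 328). Summed dissociation response genes were 3207 (3101 to 3315) CPM in *Shh* cells and 1997 (1954 to 2039.8) in the others, and their part in the *Id1* difference was not tested.

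At E16.5, 466 of 1456 epithelial cells held a *Shh* UMI, with a median of 8819.5 UMIs against 6643 in the others, and *Bmp2* and *Bmp4* were low in both. *Bmp2* was 6.72 CPM (4.87 to 9.06) in these and 9.96 (8.10 to 12.1) in the others, and *Bmp4* was 6.72 (4.87 to 9.06) and 3.69 (2.59 to 5.08). *Fst* was now lower in *Shh* cells, 28.0 (24.0 to 32.4) against 84.2 (78.6 to 90.04), 3.01 fold (2.56 to 3.55), and so was *Nog*, 9.70 (7.43 to 12.4) against 24.1 (21.2 to 27.3), 2.49 fold (1.87 to 3.34). *Bmp7* was higher, 43.5 (38.5 to 48.9) against 20.8 (18.1 to 23.8), at a ratio of 2.09 fold (1.74 to 2.51) near that of E14.5, and *Bmp5* was 7.35 (5.4 to 9.77) against 1.99 (1.22 to 3.08), a ratio of 3.69 fold (2.14 to 6.57). The Id genes stayed within 2 fold, with ratios of 1.05 fold (0.990 to 1.12) for *Id1*, 1.04 fold (1.01 to 1.08) for *Id3* and 0.736 fold (0.680 to 0.795) for *Id2*. Summed dissociation response genes were 1001 (977 to 1026) CPM in *Shh* cells and 1470.0 (1446 to 1494) in the others. In all 2 of 9 genes were higher (*Bmp5* and *Bmp7*) and 2 lower (*Nog* and *Fst*), beside 2.53% and 2.76% (5.29% in either direction) of all genes, and the difference between the stages was not tested. *Bmp5* reached 50 counts only through the *Shh* cells.

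*Krt15*, a keratin of basal epithelium, gave a further division. At E16.5 the 88 cells with a *Krt15* UMI held 151 CPM (131 to 172) of *Fst* and the 1368 others 53.8 (50.1 to 57.6), while *Id3* was 537 (499.5 to 576) and 915 (899 to 930.1). At E14.5 the 64 *Krt15* cells held 221 (186 to 262) CPM of *Fst* and 260.2 (222 to 304) of *Id2*, against 265 (251 to 281) and 145 (134 to 156) in the others. *Bmp4* had 1 and 2 counts in the *Krt15* cells of the 2 stages. Summed dissociation response genes at E14.5 were 3102 (2965 to 3244) CPM in *Krt15* cells and 2131 (2089 to 2173) in the others. At E16.5 these sums were 1667 (1601 to 1734) and 1251 (1233 to 1269). Their part in the differences was not tested, and the share of all genes was not computed for this division.

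**Figure D4:**
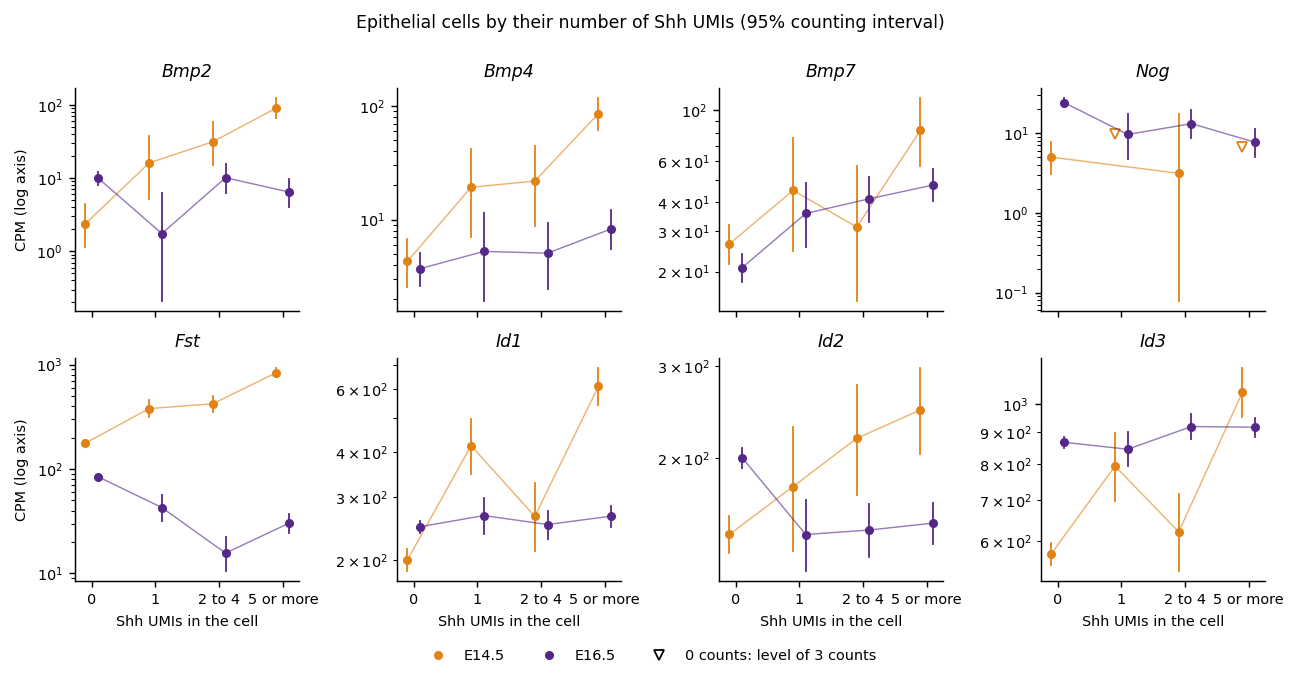
Level of 8 of the genes in CPM (log axis) in epithelial cells with 0, 1, 2 to 4 and 5 or more *Shh* UMIs at E14.5 and E16.5; points are pooled levels, bars are counting intervals, and open triangles stand at the level of 3 counts. *Bmp2*, *Bmp4* and *Fst* are highest in the bin of 5 or more at E14.5, whereas at E16.5 *Fst* is highest in cells without *Shh* and *Bmp2* and *Bmp4* stay near or below 10 CPM.

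The remaining pathway was read from a list of 46 genes chosen by name. In mesenchyme from E11.5 to E14.5, 10 of 39 with enough counts were higher and 7 lower, beside 10.3% and 11% of all genes. Pathway genes that reached the minimum of counts only through the group with the higher level were not counted separately, in this or any other comparison. Of the antagonist genes, *Sostdc1*, which encodes a BMP and Wnt inhibitor of the tooth germ, went from 19.4 CPM (18.0 to 20.8) to 348 (339 to 358), 18.0 fold (16.7 to 19.4) higher. *Grem1*, of a further secreted BMP antagonist, went from 1.28 (0.953 to 1.67) to 5.72 (4.60 to 7.04). Of the receptor genes, 0 of 9 were higher and 3 lower: *Bmpr1b* went from 23.8 (22.3 to 25.3) to 0.509 (0.220 to 1.003), and the type II receptor gene *Acvr2b* from 51.6 (49.4 to 53.9) to 8.84 (7.43 to 10.4). *Bmpr1a* and *Bmpr2* were within 2 fold at 85.2 (82.3 to 88.0) and 61.5 (57.7 to 65.5) and at 68.4 (65.9 to 71.0) and 87.6 (83.1 to 92.4). Among ligands outside the 10 genes, *Bmp6* went from 0.123 (0.0398 to 0.286) to 10.4 (8.90 to 12.2), and *Gdf10* from 0 counts, where 3 would be 0.0736 CPM, to 10.6 (9.07 to 12.4). *Bmp6* and *Gdf10* reached the minimum of counts only through the E14.5 cells, and *Bmpr1b* only through the E11.5 cells.

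From E14.5 to E16.5, 6 of 36 pathway genes were higher in mesenchyme and 2 lower, beside 7.29% and 2.21% of all genes. In epithelium 7 of 28 were higher and 1 lower, beside 6.95% and 2.34%. *Bambi*, *Msx2* and *Smad6*, all known to be induced by BMPs, were higher in both lineages. Of the list's target genes, 1 of 5 was higher in mesenchyme and 3 of 4 with enough counts in epithelium. Of its intracellular genes, 1 of 8 and 2 of 8 were higher. *Id1* passed 2 fold in mesenchyme only, and *Id2* and *Id3* did so in neither lineage. *Bambi* was 41.6 CPM (38.5 to 44.9) and 246 (238 to 254) in mesenchyme and 84.8 (77.2 to 93.04) and 373 (364 to 383) in epithelium, ratios of 5.91 fold (5.44 to 6.43) and 4.40 fold (3.996 to 4.85). *Msx2* was 16.4 (14.47 to 18.5) and 89.6 (85.2 to 94.3) in mesenchyme and 26.3 (22.1 to 31.0) and 171 (164 to 177) in epithelium, ratios of 5.46 fold (4.78 to 6.26) and 6.50 fold (5.48 to 7.76). *Smad6* was higher by 2.07 fold (1.62 to 2.65) and 2.10 fold (1.39 to 3.28). *Id4*, the fourth Id gene, was 39.5 (34.3 to 45.2) and 115 (110.3 to 121) in the epithelium, a ratio of 2.92 fold (2.53 to 3.39), and stood above the mesenchyme by 2.76 fold (2.27 to 3.35) at E14.5 and 4.82 fold (4.33 to 5.39) at E16.5.

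Between lineages, 3 of 33 pathway genes were higher and 10 lower in epithelium at E14.5, beside 9.46% and 11.2% of all genes, so the share higher was near the background. At E16.5 3 of 35 were higher and 10 lower, beside 10.2% and 12.1%. *Msx1*, a mesenchymal target of *Bmp4*, was 334 CPM (325 to 343) in mesenchyme and 17.9 (14.52 to 21.9) in epithelium at E14.5, 18.6 fold (15.2 to 23.0) lower in the latter. *Nbl1*, of a secreted antagonist, was 34.6 fold (24.9 to 49.7) lower in the E16.5 epithelium. *Sostdc1* was lower in *Shh* cells than in other epithelial cells at both stages, 133 (112 to 156) against 517 (496 to 539) at E14.5 and 289.6 (277 to 303) against 1046 (1026 to 1066) at E16.5. The transcripts of the E proteins that Id proteins bind differed less: in mesenchyme from E11.5 to E14.5 *Tcf3* was 2.12 fold (1.98 to 2.27) lower, and 0 of 3 were higher and 0 lower from E14.5 to E16.5.

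Likeness of pattern was measured as Pearson's r of log2(CPM + 10) over the 10 groups of stage and lineage with at least 50 cells, among 4891 genes with at least 50 CPM in a group. It is a description, since the groups share libraries and differ in depth. *Bmp4* was most like *Col12a1* (r = 0.98), *Slc1a3* (0.97) and *Batf3* (0.96), and *Bmp3* most like *Pappa2* (0.99), *Sst* (0.99) and *Lum* (0.98). *Bmp7* was most like *Rac3* (0.99), *Sostdc1* (0.98) and *Hist3h2ba* (0.97). *Bmp2* had no gene above 0.89, with *Sgms2* first, and *Bmp5*, which stayed below 10 CPM in every group, had *Enpp2* first at 0.90. *Fst* was most like the simple epithelial keratin gene *Krt18* (0.97), followed by *Mapk13* and *Kif21a* (both 0.95). *Nog* was most like *Sp6* (0.96), which encodes a transcription factor of the dental epithelium, followed by *Rassf9* and *Fam13a*. *Id1* was most like *Lrp6*, *Tead1* and *Hmgcs1* (0.98, 0.98 and 0.97), *Id2* most like *Tle5*, *Exoc3* and *Vegfb* (all 0.96), and *Id3* most like *Nfe2l1*, *Btbd7* and *Fam76b* (all 0.97).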

How the data were processed

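The authors' deposited UMI counts per gene and barcode were used, 1 matrix per stage, made with Chromium 3' v3 chemistry and, per the submitters' processing notes and the study's methods, Cell Ranger 4.0.0 and the mm10 reference. The counts were not normalized. The 4, 4 and 2 labelled samples at the 3 stages were not separable within a matrix (1 barcode suffix each), so every stage is 1 sample, intervals cover counting error only, and no p-value was computed. The total depth of retained cells was 47513863, 27765839 and 40024102 UMIs.

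Barcodes with under 700 genes or over 20% mitochondrial UMIs were left out. Lineage calls came from marker UMIs (at least 3 markers of 1 list), a scoring rule set after the data were seen, and erythroid cells from globin over 5% of UMIs. Cells at the cut, with exactly 3 markers, numbered 986, 1246 and 328 in mesenchyme, and 182 and 172 in epithelium at E14.5 and E16.5. No doublet caller was run, and cells with markers of more than 1 lineage were set aside. Uncalled cells numbered 1121, 1093 and 371. Erythroid cells (107, 38 and 9) were the background class named at the outset, and immune and endothelial cells were added after the data were seen. Shares of cells were also computed after thinning each cell to 2000 UMIs, which left out shallower cells.

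Counts were summed per group, and intervals were exact Poisson (levels), Clopper-Pearson (shares) and exact conditional binomial (ratios) at the 95% level. A gene was called with at least 50 counts over both groups, a ratio of at least 2 fold and an interval excluding 1, with all genes of the matrix as background. The 10 genes and the lists were chosen with earlier results of these data known. Named genes were the 10 members, genes of the 46-gene pathway list and, for each member, the 3 genes of closest pattern; some values computed by this rule are not reported here. *Hand2*, *Barx1*, *Shh* and *Krt15* were used to divide cells. Promoter windows came from a RefSeq table (GRCm38.p6) and gene bounds from GENCODE vM21, another release than the authors' annotation. Code was tested on simulated data and run with Python 3.11.15, numpy 2.4.6, scipy 1.17.1, pandas 2.3.3 and matplotlib 3.10.9. Alternatives were other cell filters, per-cell averaging, another scale, thinning, leaving out the deepest cells or the top markers, a 1.5-fold call, no count minimum and, chosen after seeing the data, at least 2 markers.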

Additional observations from a re-analysis of the deposited data

Results flagged for a closer look

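Among the genes with 50 counts or more in both comparisons, 3 had ratios of opposite direction in epithelium and mesenchyme between E14.5 and E16.5 (log2 of the later over the earlier CPM), with both counting intervals excluding 0. *Bmp2* was at -0.52 in epithelium and 3.33 in mesenchyme, *Bmp4* at -1.44 and 0.75, and *Fst* at -2.06 and 0.23. By the same rule 3 genes had opposite directions between cells with and without a *Shh* UMI in the epithelium of the 2 stages. *Bmp2* was at 4.44 at E14.5 and -0.57 at E16.5, *Fst* at 1.72 and -1.59, and *Id2* at 0.61 and -0.44. The share of all genes with opposite directions by this rule was not computed, so these counts have no background beside them. For *Fst* the mesenchymal interval, 0.03 to 0.43, included the median of all genes, 0.15. None of these differences was tested, since each stage is 1 sample. The epithelial levels of *Bmp2* and *Bmp4* at E16.5 overlapped those of endothelial cells within their intervals.

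Barcodes that the filter left out, 2135, 2101 and 1208 in order of stage, held 829, 961 and 901 UMIs of the 10 genes, and no comparison used them.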

How the results depend on the processing

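No paired analysis was possible because no label or suffix ties a barcode to 1 of a stage's samples, and for the same reason leaving out each replicate was not run. Ratios were recomputed for the 5 comparisons of whole lineages only, and those between subsets of a lineage were not. Of 398 ratios of the 10 genes recomputed under the 8 alternatives that can move a ratio, 337 stayed within the counting interval of the reported ratio, 61 moved further, 23 of them with cells thinned to 2000 UMIs, and 0 of the called values changed sign. With calls past 1.5 fold in place of 2 fold, the members called in mesenchyme from E14.5 to E16.5 numbered 7 in place of 3 (23.0% of all genes in place of 9.5%), and those called between epithelium and mesenchyme at E14.5 numbered 8 (4 higher and 4 lower in epithelium) in place of 4 (33.1% of all genes in place of 20.6%). With cells thinned to 2000 UMIs, the members called in epithelium from E14.5 to E16.5 numbered 2 (1 higher and 1 lower) in place of 4 (7.27% of all genes in place of 9.29%), with fewer counts by construction, and the log2 ratios were 1.33 for *Bmp5* and -2.18 for *Bmp4* in place of 3.43 and -1.44. *Id3* in mesenchyme from E11.5 to E14.5 lay at 1.999 fold and ranged from 0.77 to 1.08 on the log2 scale over the alternatives, on both sides of the line at 1. Depth limits the low genes most: *Bmp3*, *Bmp5* and *Nog* missed 50 counts in several comparisons, and a stage's matrix, its dissection and its age cannot be told apart.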
